A study of Mus musculus with 3 samples.

Results

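The selenocysteine tRNA SeC-TCA was followed as a source of small RNA in mouse epididymis. All rows of the deposited tables whose gene name starts with tRNA-SeC-TCA were taken, which gave 1 gene, tRNA-SeC-TCA-1-1, of 446 tRNA genes in the count table and of 413 in the fragment tables. Small RNA of 15 to 50 nt was excised from a gel and sequenced in 3 libraries from untreated epididymis, the duct in which sperm mature. There was 1 library from wild type mice and 2 from Alkbh3-/- mice, which lack the demethylase ALKBH3. Letters A and B stand for the Alkbh3-/- libraries by column order, because the column names do not show which labelled replicate each one is. The prefix B6, possibly a strain, stands before the wild type column name alone, so genetic background and genotype cannot be told apart. The Alkbh3 transcript was not analysed here, so the genotypes rest on the labels. Age, the number of animals and any pooling are not stated in the labels. In the main fits, p-values rest on scatter between the 2 Alkbh3-/- libraries, fitted over all features. The 1 wild type library adds none, and the scatter may be technical.

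As background, the selenocysteine tRNA is the longest tRNA of animal cells and has a long variable arm, like the tRNAs for serine and leucine. It is charged with serine by seryl-tRNA synthetase, and the serine is then phosphorylated by PSTK and converted to selenocysteine by SEPSECS. With the elongation factor EEFSEC it reads UGA codons in the mRNAs of selenoproteins. One of these, the glutathione peroxidase GPX4, becomes a structural part of the sperm midpiece. In mammals the selenocysteine tRNA carries 1-methyladenosine, a mark that ALKBH3 can remove from tRNA.

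The gene occupies bases 19301244 to 19301340 of chromosome 7, plus strand, in mm10 coordinates of the deposited tables, an interval of 97 nt. This was the longest of the 413 genes with coordinates, ahead of 83 nt for the next longest and a median of 72 nt. In the GENCODE M21 annotation the interval overlapped 0 genes. The nearest neighbours were the long non-coding RNA gene Gm26802, 474 nt away, and Fosb, a transcription factor gene, 1356 nt away on the other side, both on the minus strand. Since the tables list 1 SeC-TCA copy, its reads were not divided among listed copies. Any near-identical sequence outside the tables was not analysed here.

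SeC-TCA gave long fragments, and 3 lengths held most of its reads. In the fragment tables, which give the reads of each gene at each length, 48 nt was the leading length with 721 reads in wild type, 459 in A and 824 in B. Fragments of 50 nt had 580, 372 and 552 reads, and those of 37 nt had 418, 367 and 688. The order of 48 nt first held in every library, while 50 nt stood above 37 nt in wild type and, by 5 reads, in A, and below it in B. Together the 3 lengths made up 64.7% of the SeC-TCA reads in wild type, 65.4% in A and 62.0% in B. The median length was 48 nt in each library.

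**Figure D1:**
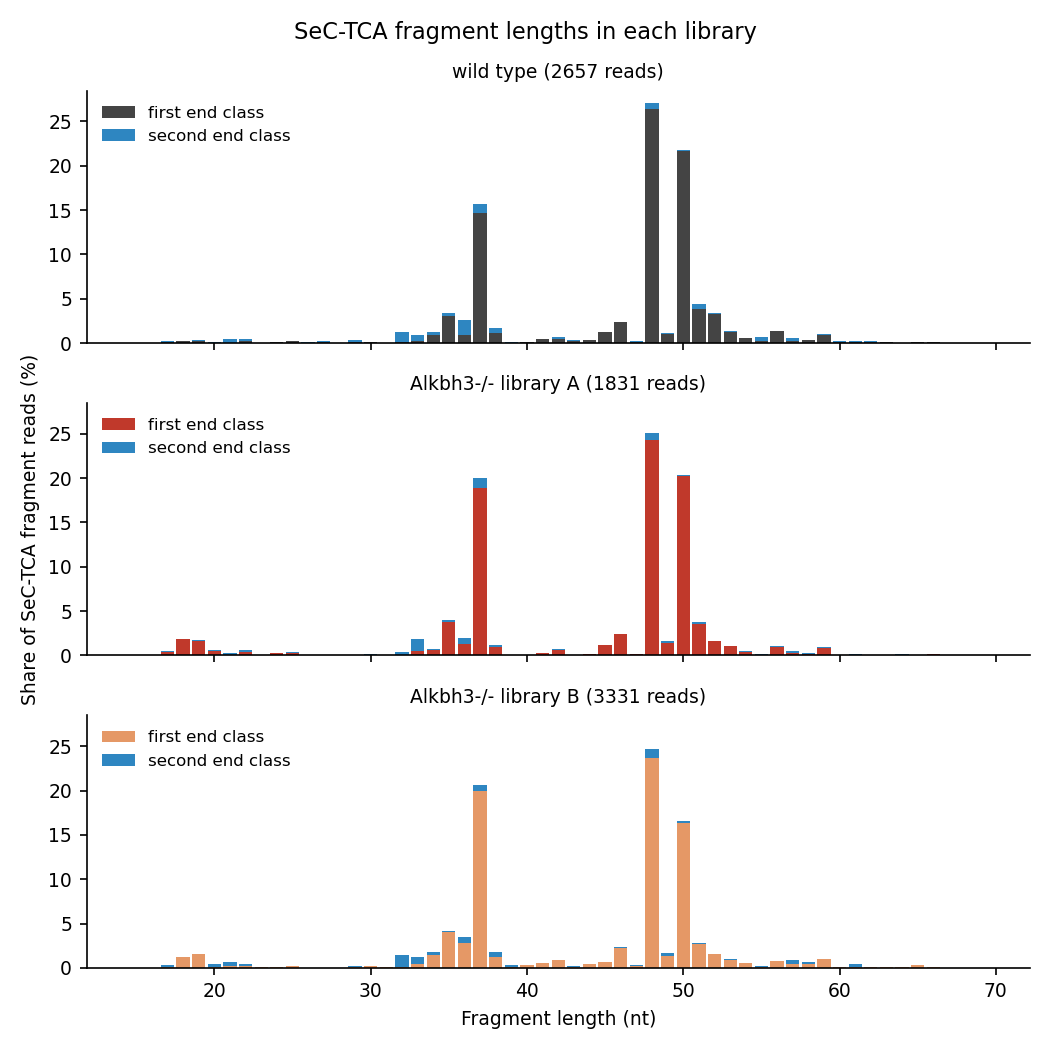
Share of SeC-TCA fragment reads (%) at each length (nt) in the wild type library (2657 reads) and in Alkbh3-/- libraries A (1831) and B (3331), with the first end class in the library's colour and the second stacked on it in blue. Peaks at 37, 48 and 50 nt stand out in all 3 libraries, and small bars at 18 and 19 nt are higher in A and B.

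The leading 48-nt fragment corresponds in length to 49.5% of the 97-nt gene, and the 37-nt fragment to 38.1%. The tables hold no positions within the gene, so which part of the tRNA each fragment covers is not known here. The reads listed for SeC-TCA ran from 17 to 68 nt, beyond the 50 nt stated for the excised gel range. Reads over 50 nt made up 14.6% of the SeC-TCA reads in wild type, 11.1% in A and 10.9% in B. For all tRNA fragments together the same share was 0.149%, 0.217% and 0.240%. That pool is mostly Gly-GCC and Glu-CTC reads. Among 40 isoacceptors (tRNAs that share their amino acid and anticodon) with at least 100 fragment reads per library, SeC-TCA ranked 11 on this share, with a mean of 12.2% over the libraries. The median of the others was 2.18%, Arg-CCT had 73.9%, and Gln-CTG at 14.5% and Arg-ACG at 13.4% were above SeC-TCA.

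Most other tRNAs had shorter leading lengths. Among the 40 isoacceptors the leading length was 28 to 36 nt in 27 and had a median of 32 nt. It was 40 nt or longer in 4, namely SeC-TCA, Leu-TAA, Ile-AAT and Arg-CCT, the last at 54 nt. The 5-nt window with the most SeC-TCA reads, 48 to 52 nt, held 52.5% of its reads as a mean of the libraries, the highest share of the 40. Leu-AAG followed with 29.6%, and the median of the other 39 was 1.03%. The 30 to 33 nt range, which held 90.7% of all wild type tRNA fragment reads, held 2.22% of the SeC-TCA reads, and by the mean of the libraries SeC-TCA ranked 39 of 40 there. Relative to gene length it was less extreme: the leading length was 49.5% of the gene for SeC-TCA, rank 10 of 40, and 43.8% at the median of the others.

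**Figure D2:**
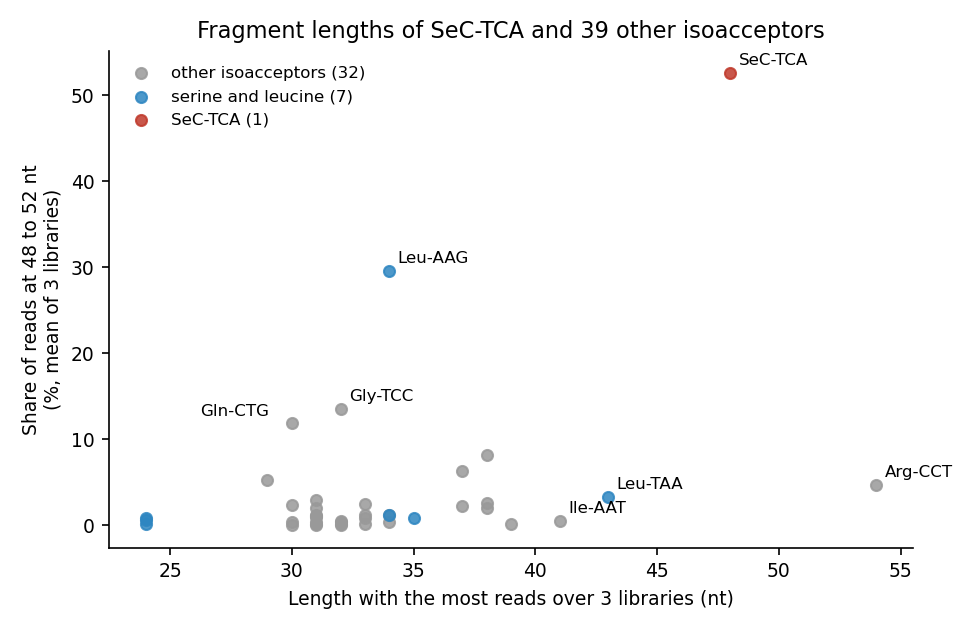
Length with the most reads (nt, all libraries together) against the share of reads at 48 to 52 nt (%, mean of 3 libraries) for 40 isoacceptors. Each point is 1 isoacceptor, with serine and leucine tRNAs in blue, and SeC-TCA stands at 48 nt and 52.5%, above Leu-AAG at 29.6%.

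The whole length profile was compared as the total variation distance, the part of the reads that would have to change length or end class to turn one profile into another (0 for equal profiles, 1 for no overlap). Of 39 other isoacceptors the most alike was Gly-TCC, at a distance of 0.759 averaged over the 3 libraries, then Gln-CTG at 0.792 and Arg-ACG at 0.831. The median distance was 0.910. Between libraries the SeC-TCA profile moved far less, 0.131 from wild type to library A, 0.166 from wild type to library B and 0.107 between A and B. The long-armed serine and leucine tRNAs did not share the profile: the leading length was 24 nt for Ser-AGA, Ser-GCT and Ser-TGA, 34 nt for Leu-AAG and Leu-TAG, 35 nt for Leu-CAG and 43 nt for Leu-TAA. Leu-AAG also varied more between libraries, with 29.8% of its reads at 48 to 52 nt in wild type, 49.7% in A and 9.25% in B.

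SeC-TCA was a minor source of tRNA reads. In the tRNA gene count table it had 2006 reads in wild type, 1334 in A and 2399 in B. That was rank 18 of 56 amino acid and anticodon names in each library, which include names without reads, such as Und-NNN and Sup-TTA. The fragment tables list more reads for SeC-TCA, 2657, 1831 and 3331, and the reason for the gap is not stated. Scaled to the sum of 5 RNA classes per library (15107055, 15411457 and 21169908 reads), the gene counts came to 133, 86.6 and 113 RPM (reads in every 1000000 reads of those classes). Both Alkbh3-/- libraries lay below wild type, and the nearer one was closer to wild type (19.5 RPM) than to the other (26.8 RPM). Scaled to tRNA gene reads alone, SeC-TCA had 499.7 in every 1000000 such reads in wild type (exact Clopper-Pearson 95% interval 478 to 522). It had 399 in A (378 to 421) and 503 in B (483 to 524). On that base library B and wild type had overlapping intervals and library A alone was lower. These intervals cover counting error only. In bulk tissue, fewer cells of a type and less RNA per cell cannot be told apart.

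**Figure D3:**
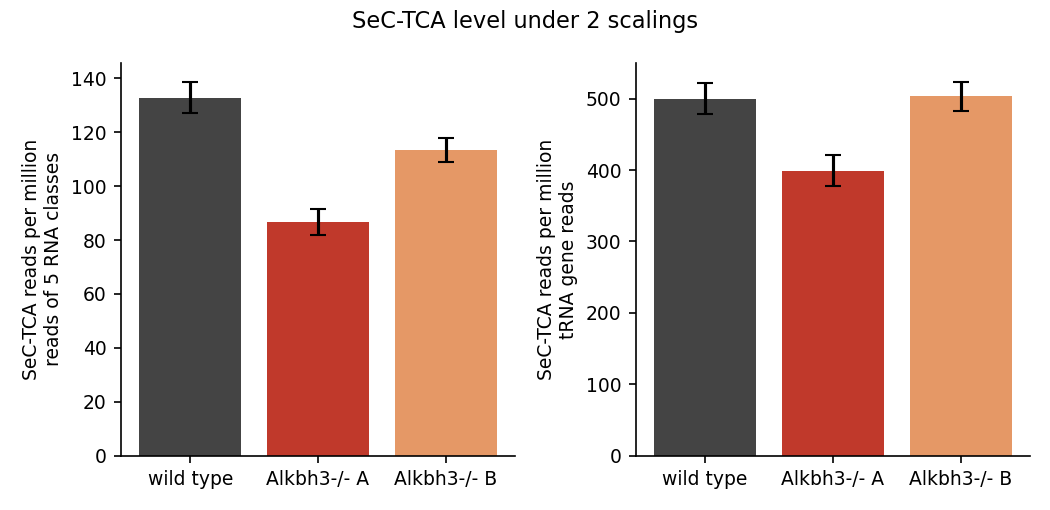
SeC-TCA gene reads in RPM, scaled to the sum of 5 RNA classes (left), and in every 1000000 tRNA gene reads (right). Bars show the wild type library and Alkbh3-/- libraries A and B, with 95% binomial intervals for counting error. Library A is lowest on both scales, and library B is below wild type on the left and level with it on the right.

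In the edgeR quasi-likelihood fit over 46 isoacceptors, SeC-TCA had a log2 fold change of -0.38 (SE 0.35) between Alkbh3-/- (99.9 ± 18.9 RPM, SD, n = 2) and wild type, and it did not pass (edgeR adjusted p = 0.55). The 95% interval of the log2 fold change, from -1.07 to 0.31, includes 0. At an adjusted p of 0.05, 23.9% of the isoacceptors passed, 6.52% higher and 17.4% lower in Alkbh3-/-. Over the tested isoacceptors the median was -0.26 at this scaling, and relative to it SeC-TCA stood at -0.12. With the tRNA gene sums as library sizes the median was 0.01 and the SeC-TCA log2 fold change -0.12 (SE 0.30). Its log2 ratios to wild type were -0.62 in A and -0.23 in B.

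Neighbours in the order of mean level were Gly-TCC, with 127 RPM in wild type, 76.7 in A and 137 in B, and Asn-GTT, with 209.6, 45.6 and 64.9. Gly-TCC (107 ± 42.6 RPM in Alkbh3-/-, SD, n = 2) differed from SeC-TCA by less than that spread, while Asn-GTT was higher in wild type and lower in both Alkbh3-/- libraries. The isoacceptors most alike in change, by the distance in the pair of log2 ratios over 43 others, were Val-CAC (-0.63 in A, -0.21 in B), Arg-ACG (-0.54 and -0.14) and Thr-CGT (-0.61 and -0.35). The comparison rests on the 3 libraries, which all isoacceptors share.

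Of 4 serine tRNAs tested, which the same synthetase charges, 1 rose, 3 did not pass and the median log2 fold change was 0.40. The one that rose was Ser-AGA, by 0.62 (SE 0.21) at an edgeR adjusted p of 0.022. That call was lost in 4 of 7 alternative fits, at adjusted p from 0.062 to 0.26. Of 4 leucine tRNAs tested, 1 rose, 3 did not pass and the median was 0.46. It was Leu-CAG, by 0.55 (SE 0.21) at an edgeR adjusted p of 0.044, and the same 4 fits lost it, at adjusted p from 0.073 to 0.31. Over all 46 isoacceptors 3 were higher, 8 were lower and the median was -0.26. Among 11 isoacceptors with a mean level within 2-fold of SeC-TCA, 0 were higher and 1, Asn-GTT, was lower, a call lost in 1 of the 7 fits, with the fragment tables (adjusted p = 0.11).

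Within the SeC-TCA reads, the 37-nt share in either Alkbh3-/- library differed from the 1 wild type library by more than A and B differed. The 37-nt share was 15.7% in wild type (exact Clopper-Pearson 95% interval 14.4 to 17.2), 20.0% in A (18.2 to 22.0) and 20.7% in B (19.3 to 22.1). Library A, the nearer one, stood 4.31 percentage points from wild type, while A and B stood 0.611 points apart. Per read of 48 nt there were 0.580 reads of 37 nt in wild type, 0.800 in A and 0.835 in B, a ratio that needs no scaling. Per read of 50 nt there were 0.721, 0.987 and 1.25, so A lay about as far from B as from wild type. The 48-nt share was 27.1% (25.5 to 28.9), 25.1% (23.1 to 27.1) and 24.7% (23.3 to 26.2), and these intervals overlap. The share over 50 nt was 14.6%, 11.1% and 10.9%. In each of these 2 shares, A and B were closer to each other than to wild type. For the 48 to 52 nt window the values were 57.8%, 52.4% and 47.4%, so the nearer library was 5.34 points from wild type and 5.06 points separated A from B. The 50-nt share, at 21.8%, 20.3% and 16.6%, placed library A closer to wild type than to library B. Since 0.33 is the smallest p that exact permutation of these 3 libraries allows, the shares were not tested.

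Over all tRNA fragments the 48 to 52 nt share moved the other way, from 0.594% in wild type to 1.83% in A and 1.69% in B. Gly-GCC, the isoacceptor with the most fragment reads, had 0.622%, 2.83% and 2.59% there. Counted by isoacceptor, 13 of the 39 others resembled SeC-TCA in that A and B each had less than wild type in this window, while 18 had more in each. Of the isoacceptors most alike in lengths, Gly-TCC, with 22.1%, 8.98% and 9.34%, and Gln-CTG, with 14.8%, 8.56% and 12.4%, were among the 13. Arg-ACG, the next most alike, went the other way, with 4.98%, 7.62% and 11.9%. At 37 nt, 10 isoacceptors gained share in A and B like SeC-TCA and 20 lost share in each. Over 50 nt, 13 had a smaller share than wild type in A and B, like SeC-TCA, and 17 a larger one. Shares within SeC-TCA are parts of a whole and are not independent of each other.

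**Figure D4:**
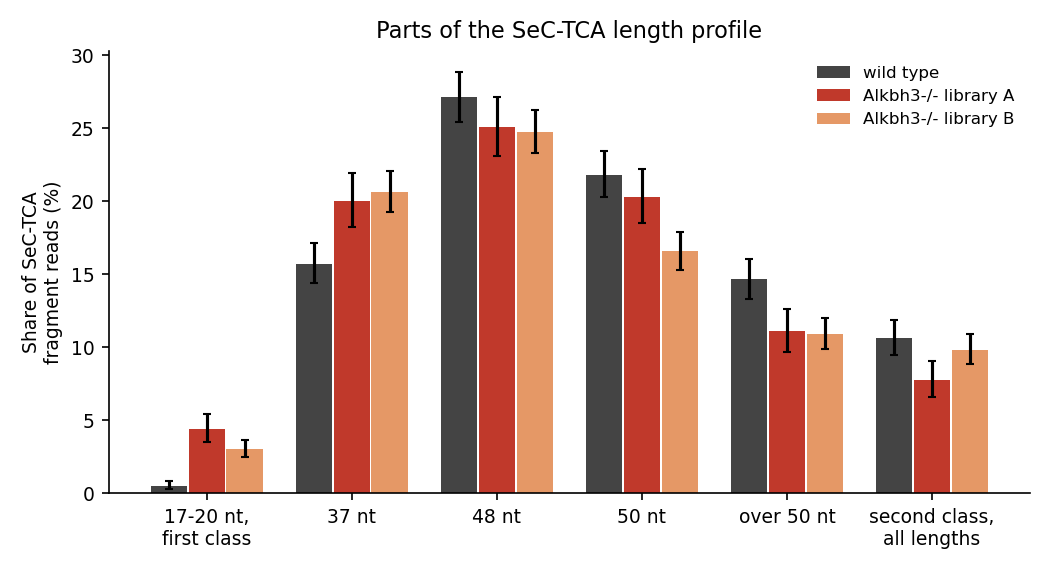
Share of SeC-TCA fragment reads (%) in 6 parts of the profile for the wild type library and Alkbh3-/- libraries A and B, with exact 95% binomial intervals for counting error. The 37-nt and the short 17 to 20 nt parts are higher in both Alkbh3-/- libraries. The parts at 48 nt and over 50 nt are lower in both, with overlapping intervals at 48 nt.

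Short fragments of 17 to 20 nt in the first of the 2 unnamed end classes were few in wild type and more frequent in both Alkbh3-/- libraries. There were 13 such reads in wild type, 80 in A and 101 in B, or 0.489% (exact Clopper-Pearson 95% interval 0.261 to 0.835), 4.37% (3.48 to 5.41) and 3.03% (2.48 to 3.67) of the SeC-TCA reads. The share was 8.93 times that of wild type in A and 6.20 times in B. In the second end class the same lengths had 12, 4 and 17 reads. The window was chosen after the lengths were seen, so its difference is a description with no test.

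Most of these reads were 18 or 19 nt long, with 5 reads in wild type, 33 in A and 42 in B at 18 nt, and 6, 30 and 51 at 19 nt. Both lengths fell outside the main fit, which required 10 or more reads in each library. With a filter on the sum over libraries, the log2 fold changes were 2.61 (SE 1.06, edgeR adjusted p = 0.22) at 18 nt and 2.45 (SE 1.02, adjusted p = 0.24) at 19 nt, and neither passed. That filter tested 57 SeC-TCA fragments, of which 0 passed and 7 had an unadjusted p under 0.05, 3 higher and 4 lower in Alkbh3-/-. Over all 1140 fragments under that filter, 12 passed. Their unadjusted count is not given here, so the 7 have no background beside them. Among the 57, the lowest adjusted p, 0.10, was that of the second-class 55-nt fragment. It had 12, 1 and 2 reads and a log2 fold change of -3.17 (SE 1.03). Other isoacceptors were compared where the short first-class reads, summed over the libraries, numbered 10 or more, which gave 18. Of these, 11 had a higher share in both Alkbh3-/- libraries and 1 a lower share in both. Since 2 of the summed libraries are Alkbh3-/-, an isoacceptor can enter mainly through its Alkbh3-/- reads. That can tilt the counts and folds over the 18 towards higher values. Without this filter, 12 of 39 others were higher in both and 5 lower in both. The median fold of the share over those 18 was 1.90, against 7.56 for SeC-TCA. Ser-GCT had a larger mean fold, with 1 read in wild type, 14 in A and 36 in B. Leu-AAG, with 1, 12 and 12 reads, had a mean fold of 7.27 and in library B stood above SeC-TCA, at 8.16 times wild type. Of 6 serine and leucine isoacceptors among the 18, 5 had a higher share in both Alkbh3-/- libraries, Ser-AGA at 4.43 times in A and 3.84 times in B. Folds on 1 wild type read carry a wide counting error. By the mean share of short first-class reads, SeC-TCA ranked 3 of 40, after Ala-AGC and Leu-CAG. Ala-AGC had 4.91% in wild type, 4.30% in A and 6.20% in B, and Leu-CAG had 2.64%, 3.02% and 3.52%. Over all tRNAs these reads made up 0.00516% of the first-class reads in wild type, 0.00772% in A and 0.0113% in B, and the part of this general shift in the SeC-TCA difference was not tested.

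The second end class held 10.6% of the SeC-TCA reads in wild type, 7.76% in A and 9.82% in B, rank 18 of 40 isoacceptors by the mean. Over all tRNA fragments it held 0.377%, 0.414% and 0.418%. The classes differed in length. At 37, 48 and 50 nt together the second class held 2.91%, 3.01% and 3.20% of the reads, whereas at 32 and 33 nt it held 44 of 55 reads in wild type, 32 of 43 in A and 73 of 90 in B. At 36 nt, a length named after its values were seen, the second class had 44 of 68 reads in wild type, 12 of 36 in A and 19 of 114 in B. That is 64.7%, 33.3% and 16.7%, so A and B also differed from each other. The first class had 24, 24 and 95 reads there, so library A differed from wild type in the second class and library B in both.

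Of 97 SeC-TCA fragments (a length in an end class with at least 1 read), 20 had 10 or more reads in each library and were tested among 572 fragments of all isoacceptors, 16 of the first class and 4 of the second. None passed an edgeR adjusted p of 0.05, where 2.27% of all fragments passed, and 2 had an unadjusted p under 0.05, against 10.1% of all fragments. DESeq2 called 0 of the 20 as well. The 20 passed a filter on reads in every library, and the 10 with the most reads held 77.3% of the SeC-TCA reads. Their SEs ran from 0.56 to 1.11 on the log2 scale, so a 2-fold difference was under 2 SE for each of them.

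The main fragment, 48 nt of the first class, had 46.5 RPM in wild type, 28.9 in A and 37.2 in B, a log2 fold change of -0.49 (SE 0.56). The 50-nt fragment had 38.1, 24.1 and 25.7 RPM, a log2 fold change of -0.61 (SE 0.56). The 37-nt fragment had 25.8, 22.5 and 31.5 RPM, a log2 fold change of 0.07 (SE 0.57). For 48 and 50 nt both Alkbh3-/- libraries were below wild type, whereas for 37 nt they lay on either side of it. At 52 nt in the first class the log2 fold change was -1.40 (SE 0.67, unadjusted p = 0.038, edgeR adjusted p = 0.43), and at 51 nt it was -0.69 (SE 0.63). At 52 nt the reads were 88, 30 and 51, and both Alkbh3-/- libraries were lower in RPM.

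Among the less abundant first-class fragments, the log2 fold change was 0.04 at 35 nt, -0.33 at 46 nt, 0.09 at 49 nt and -0.33 at 38 nt. Without library B the ratio to wild type was -0.24 at 35 nt and -0.08 at 49 nt. The 36-nt fragment had 1.005 (SE 0.83), with 1.59 RPM in wild type, 1.56 in A and 4.49 in B, so the value rests on library B. The second-class fragment of 36 nt had 2.91, 0.779 and 0.898 RPM, and its log2 value was -1.77 (SE 0.85) with an edgeR adjusted p of 0.43. It was named for having an unadjusted p under 0.05 (0.038), after its value was seen. With TMM scaling its adjusted p was 0.043, the 1 SeC-TCA fragment past the threshold in any of the 6 settings. The median log2 fold change of the 20 was -0.33, beside -0.03 over all 572. In 12 of the 20 both Alkbh3-/- libraries were below wild type in RPM and in 2 both were above. The same counts over all 572 are not given here, so they are not read as a trait of SeC-TCA. Direction also depends on scaling: with the fragment table sums as library sizes the medians were -0.05 for the 20 and 0.25 over all 572.

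**Figure D5:**
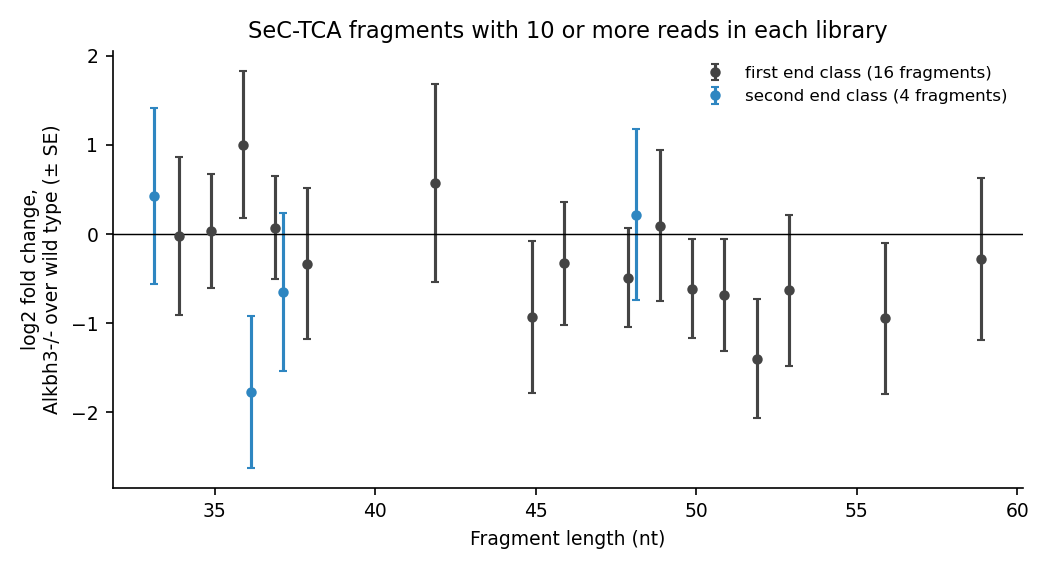
Log2 fold change of Alkbh3-/- over wild type (points, bars ± SE from edgeR) against fragment length (nt) for the 20 tested SeC-TCA fragments, in the first (16, dark) and second (4, blue) end class. Values run from -1.77 to 1.005, and 0 of the 20 passed the adjusted threshold.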

How the data were processed

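Per the labels' protocols, total RNA (100 μg) was separated on a denaturing gel of 15%, RNA of 15 to 50 nt was recovered, and a kit for small RNA made the libraries. The authors deposited raw read counts per RNA class and per tRNA gene, and for each library a sheet with gene coordinates and a text list of reads by length in 2 unnamed end classes. In the sheets, 6 columns that only add up each end class were left out. The submitters' processing notes name cutadapt and mm10 without versions or roles. No source used here states the aligner, the counter or how reads with several matches were counted. The size selection removes intact tRNA, and base modifications can stop reverse transcription, so a count can change with modification as well as with amount.

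Isoacceptor sums of at least 10 reads in all were fitted in edgeR 4.0.16 (glmQLFit and glmQLFTest, R 4.3.3), with the sum of 5 RNA classes as library size, no composition factor and Benjamini-Hochberg adjustment over all features. Fragments (isoacceptor, length and end class) needed 10 or more reads in every library and were fitted likewise. The 1 residual degree of freedom came from the Alkbh3-/- libraries, and the prior degrees of freedom were infinite in both main fits. The spread used for a feature was therefore the one fitted over all features at its read level, not its own. SEs did not fall steadily with read number. In rising order of reads they were 0.18 for Thr-AGT, 0.35 for SeC-TCA, 0.74 for Asp-GTC and 0.05 for Gly-GCC. SE equals the absolute log2 fold change over the square root of F, and fold change intervals span 1.96 SE on either side. Shares carry exact Clopper-Pearson 95% intervals (SciPy 1.17.1). DESeq2 1.42.0 was an alternative. The text names the gene, its 10 fragments with the most reads and any past the test, serine and leucine tRNAs that passed, and the 3 isoacceptors most alike in change and in lengths. The members, lists and rules were chosen with earlier results of these data known. No SeC-TCA sequence is printed.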

Additional observations from a re-analysis of the deposited data

How the results depend on the processing

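The SeC-TCA log2 fold change stayed below 0 and short of the threshold in 8 alternative fits, from -0.41 with edgeR's older quasi-likelihood method, added after seeing the data, to -0.10 with DESeq2 (adjusted p from 0.35 to 0.97). With 1 Alkbh3-/- library left out it ranged from -0.62 to -0.23, with no test. The median over tested SeC-TCA fragments ranged from -0.37 with TMM scaling to -0.05 with the fragment table sums, and from -0.68 to -0.13 with a library left out. The number of SeC-TCA fragments past the threshold was 0 except with TMM scaling, where it was 1, and the cause was not tested. Of 50 values for the 10 named fragments under other settings, 49 kept their direction and their side of the threshold, and the 35-nt fragment turned to -0.00018 with TMM scaling. Leaving out library B turned 4 of the 10 below 0, to -0.20 at 37 nt, -0.24 at 35 nt, -0.03 at 36 nt and -0.08 at 49 nt, and leaving out library A turned 0. The Ser-AGA and Leu-CAG calls were lost with TMM scaling, DESeq2, the fragment tables and the older method, with log2 fold changes from 0.60 to 0.91 and from 0.53 to 0.85 over 7 alternatives. Calls over all isoacceptors numbered 11, against 3 with DESeq2 and 5 with the older method, and calls over all fragments numbered 13, against 48 with TMM scaling and 26 with DESeq2. The Alkbh3-/- minus wild type difference in the 48 to 52 nt share was -7.87 percentage points, -3.90 in a window 1 nt narrower on each side, which leaves out 48 nt, and -10.4 to -5.34 with a library left out. For the second end class it was -1.83 points, and -2.86 to -0.80 with a library left out. No paired analysis was possible with 1 wild type library and 2 Alkbh3-/- libraries. Depth limits single fragments, most of which had under 100 reads a library.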
